A study of Mus musculus with 24 samples.

Results

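Respiratory chain genes were examined in microglia, the resident macrophages of the brain, from mice labelled as induced Dicer1 knockouts and their controls. The members were all rows of the deposited gene table whose protein-coding mouse symbol begins like those of the subunits of complexes I to IV and of ATP synthase (mt-Nd, mt-Co, mt-Atp, mt-Cytb, Ndufa, Ndufb, Ndufc, Ndufs, Ndufv, Cox4 to Cox8, Uqcr, Sdha to Sdhd, Atp5). This gave 106 of 49315 genes, 13 of them encoded in the mitochondrial genome and 93 in the nucleus. The rule used names and no measured value, and it was chosen with earlier results of these data known. Complex I had 7 mitochondrial and 38 nuclear members, and the pattern also took in 8 Ndufaf genes, which encode assembly factors of complex I and not subunits. Complex II had 4 members, all nuclear. Complex III had 1 mitochondrial and 8 nuclear members, complex IV had 3 and 18, and ATP synthase had 2 and 17. Ndufa4 and Ndufa4l2 were counted with complex I by their names, although the NDUFA4 protein is now placed in complex IV.

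The mice were adult. Cre+ mice carried creERT2, a Cre recombinase that tamoxifen activates, at Cx3cr1, a gene active in microglia and in related macrophages, and are labelled as Dicer1 knockouts induced by tamoxifen. Cre- mice also received tamoxifen and lacked the recombinase, so the genotypes differ in the Cx3cr1 locus as well as in Dicer1. The 24 libraries form 8 groups of 3, a Cre+ and a Cre- group for every state: naive, given tamoxifen alone; demyelination, after 6 weeks of the copper chelator cuprizone; remyelination after 6 weeks of cuprizone and 6 weeks of normal diet, with tamoxifen at the start; and remyelination after the same feeding with tamoxifen at the peak, in week 5 of cuprizone. By the sample labels the naive and demyelination groups also had tamoxifen at the start. The series text puts it at 4 to 5 weeks for demyelination and the first remyelination set, without saying from when, and names no week for the naive mice. Cells had been sorted from brain as CD45-intermediate and CD11b-positive, and bulk RNA was sequenced with an ultra-low input kit. Libraries are called by state, genotype and replicate number.

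The respiratory chain passes electrons from NADH (complex I) or succinate (complex II) through complex III to oxygen at complex IV, and ATP synthase uses the resulting proton gradient to make ATP. Complexes I, III, IV and ATP synthase combine a few subunits encoded in mitochondrial DNA, transcribed inside the organelle, with many that are encoded in the nucleus and imported. Microglia are known to shift their balance of oxidative phosphorylation and glycolysis when they are activated.

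Depth was 19.48 to 44.53 M (mega) counts in the 12 naive and demyelination libraries and 8.87 to 12.56 M in the 12 remyelination libraries, so states that include remyelination differ in depth from the others and the 2 cannot be told apart. Levels are counts per M counts (CPM) on TMM-scaled library sizes. Differences were tested with edgeR's quasi-likelihood F test over the 17579 genes that passed a filter on low counts, with Benjamini-Hochberg adjustment over all of them, and a gene is called higher or lower where its adjusted p is under 0.05. The 10 microglial markers (P2ry12, Tmem119 and others) were all detected, with a summed level of 34798.3 to 75251.6 CPM. Exon totals of Dicer1 ranged from 21.81 to 24.31 CPM in naive Cre+ and from 11.1 to 18.55 CPM in naive Cre- libraries, a level called higher in naive Cre+ and so against the direction of the label (log2 0.72 ± 0.16, adjusted p = 0.00151, edgeR). No Cre+ group passed the test for a lower level (adjusted p = 0.0922 in demyelination, log2 -0.45 ± 0.17). A deleted segment cannot be seen in gene totals. Cx3cr1 stood at 41.5% to 59.3% of the Cre- mean in 9 Cre+ libraries, and at 2.18% in naive Cre+ replicate 1, 1.87% in demyelination Cre+ replicate 1 and 1.61% in demyelination Cre+ replicate 3. For the demyelination genotype contrast and its interaction with the naive state, counts are also given without these 3 libraries. Single genes whose calls change without them are not all named, in these and in the other contrasts.

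Of the 106 members, 103 passed the filter. The others were nuclear: Cox7b2, Cox8c and Ndufa4l2, each at or under 1.60 CPM in the 24 libraries. Per kb of exon, the mitochondrial genes outside a stretch described next were the most abundant members. mt-Cytb, the cytochrome b of complex III, led with 1374.4 CPM per kb over all libraries. It was followed by mt-Nd1 at 1165.6 and mt-Co1, the catalytic subunit of cytochrome c oxidase, at 957.9 CPM per kb. The most abundant nuclear members were Cox6a1 at 217.0, Ndufa1 at 196.9 and Cox8a at 178.8 CPM per kb. Tissue-restricted complex IV isoforms other than Cox6a2 were at the other end. Cox6b2 (known from testis) had 1.24 and Cox8b 1.05 CPM per kb. Cox7a1 (heart and skeletal muscle) had 0.825 and Cox4i2 (known from lung) 0.275 CPM per kb. Cox6a2, described below, stood higher at 16.62 CPM per kb.

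**Figure D1:**
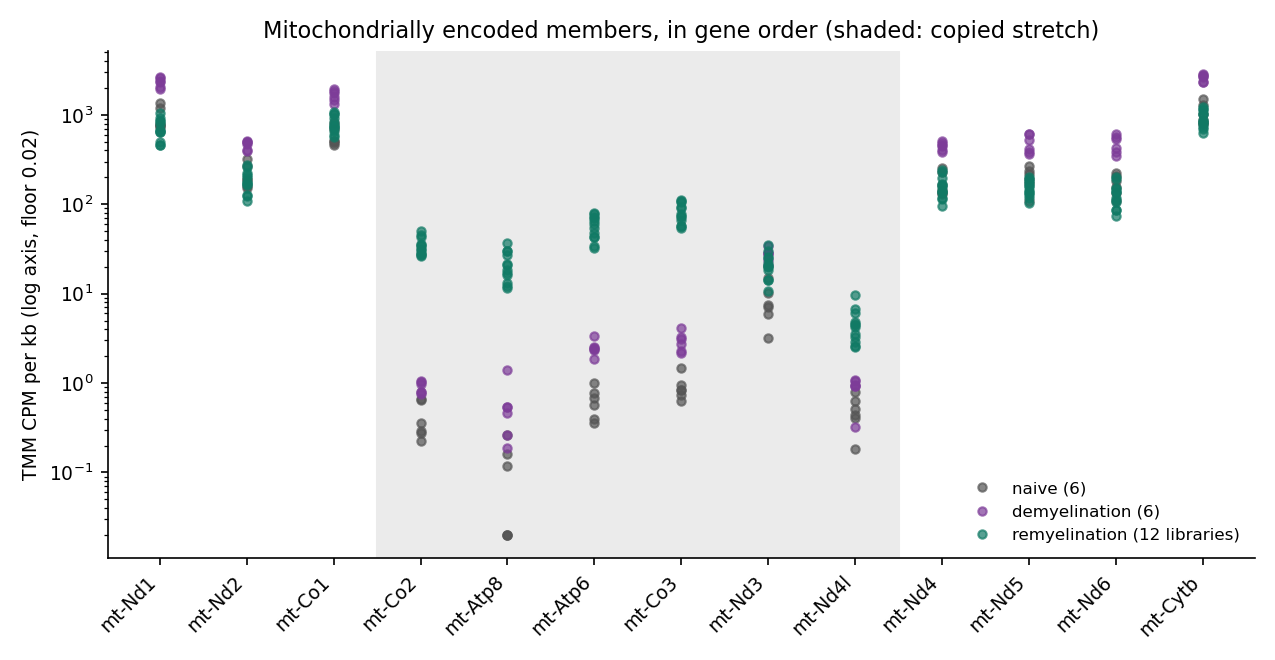
Level of each of the 13 mitochondrially encoded members in CPM per kb of gene (log axis, values under 0.02 drawn at 0.02), in the order of the mitochondrial genome, with 1 point per library and the states in colour. Inside the shaded stretch from mt-Co2 to mt-Nd4l the naive and demyelination points lie far under those of the flanking genes, and the remyelination points lie between, except for mt-Nd3, whose remyelination points overlap those of demyelination.

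Of the 13 mitochondrial genes, 6 neighbours were almost empty in part of the libraries. mt-Co2, mt-Atp8, mt-Atp6, mt-Co3, mt-Nd3 and mt-Nd4l lie side by side on chromosome M (GRCm38, 7013 to 10173). Together they held 2.51 to 7.82 CPM in naive, 11.1 to 17.4 CPM in demyelination and 89.3 to 189.5 CPM in remyelination libraries. The same stretch exists as a nuclear copy on mouse chromosome 1. mt-Co2 is identical to the pseudogene Gm28661 over 681 bases, mt-Atp6 to Gm10925 over 678, mt-Co3 to Gm28437 over 783 and mt-Nd4l to Gm10222 over 294, and mt-Nd3 differs from Gm28438 at 1 base of 345. A read from such a gene has more than 1 possible origin, and how the authors' counting treated such reads is not given in the sources used here. For mt-Atp8 the nearest annotated copy, Gm28925, is 81.4% identical. For genes wholly outside the stretch the best match was not identical. mt-Co1 is 97.6% identical to Gm13340 on chromosome 2, mt-Cytb 92.9% to Gm11410 on chromosome 4 and mt-Nd1 76.6% to Gm11834. Only the best match of each gene was read, so shorter identical copies are not excluded. Gm29216, which lies beside the mt-Co2 copy on chromosome 1, had 39 to 58 counts in naive Cre+ libraries. It had 305 to 368 in remyelination Cre+ libraries with tamoxifen at the start. Whether it matches part of mt-Co1 was not tested. mt-Nd4 is a partial case, with the first 876 of its 1378 bases identical to Gm28439. A pair of 60-base windows shows the contrast, with the bases that differ between gene and copy in capitals. The windows are mt-Nd3 (chrM:9459-9518, plus strand) with Gm28438 (chr1:24613060-24613119, minus strand), and mt-Cytb (chrM:14970-15029, plus strand) with Gm11410 (chr4:80004814-80004873, plus strand), all read 5′ to 3′ from GRCm38.
mt-Nd3: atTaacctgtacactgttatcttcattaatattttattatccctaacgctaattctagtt
Gm28438: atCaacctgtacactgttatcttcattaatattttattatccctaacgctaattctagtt
mt-Cytb: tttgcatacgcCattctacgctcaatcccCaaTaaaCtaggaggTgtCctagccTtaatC
Gm11410: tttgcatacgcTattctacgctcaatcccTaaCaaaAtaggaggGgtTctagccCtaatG
The first pair differs at 1 of 60 bases and the second at 8 of 60. The chromosome 1 copies carried counts of their own. Gm28437, the copy of mt-Co3, had 76 to 177 counts in naive Cre+ and 118 to 273 in naive Cre- libraries, 381 to 548 in demyelination Cre+ and 367 to 375 in demyelination Cre-, and 942 to 1124 in the shallower remyelination Cre+ and 1209 to 1616 in remyelination Cre- libraries with tamoxifen at the start. Values of these 6 genes are therefore uncertain in level and in state changes. Summed mitochondrial levels below leave them out, with 2 exceptions. The mitochondrial sum per nuclear sum and the sums without scaling hold all 13 genes. Medians and counts of called members hold all 13 as well, unless stated otherwise. The 7 genes kept as outside the stretch are not free of copied sequence. They include mt-Nd4, with its 876 copied bases, and mt-Co1, for which a match to Gm29216 was not tested.

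The largest change in respiratory chain RNA was between states. In demyelination most members were higher than in the naive state, in both genotypes. In Cre- libraries 75 of the 103 members were called higher, against 19.7% of all genes tested, and 3 lower, against 16.2% of all genes. In Cre+ libraries 94 of 103 were called higher, against 26.3% of all genes, and 0 lower, against 25.9%. The median log2 change was 1.78 for mitochondrial and 1.36 for nuclear members in Cre+, and 1.01 and 0.68 in Cre-, while the median of all genes was 0.01 and 0.04. Both comparisons have their own libraries. In bulk RNA, more cells of a kind and more RNA per cell cannot be told apart.

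The 7 mitochondrial genes outside the copied stretch, which include the partly copied mt-Nd4, were all called higher in demyelination in both genotypes. Their summed level was 11220.1, 10928.1 and 10883.3 CPM in demyelination Cre+ and 9763.4, 8773.2 and 8355.4 CPM in demyelination Cre- libraries. It was 3464.1, 3200.0 and 3038.3 CPM in naive Cre+ and 4812.4, 5572.3 and 3306.9 CPM in naive Cre- libraries. The states did not overlap, and the demyelination mean was 3.40 times the naive mean in Cre+ and 1.96 times in Cre- mice. mt-Cytb had 3192.4, 3294.7 and 3135.8 CPM in demyelination Cre+, 996.4, 916.7 and 895.6 in naive Cre+ (log2 1.78 ± 0.13, SE, n = 3 per group, edgeR adjusted p = 1.08e-11). In Cre- it had 3025.4, 2693.6 and 2647.4 CPM in demyelination, 1484.0, 1722.3 and 1179.2 in naive (log2 0.93 ± 0.13, adjusted p = 1.36e-06). mt-Nd6, the member transcribed from the opposite strand of mitochondrial DNA, had 313.0, 275.8 and 294.2 CPM in demyelination and 94.49, 81.89 and 69.42 CPM in naive Cre+ libraries (log2 1.85 ± 0.25) and rose in Cre- as well (1.11 ± 0.25). Whether the counting used strand is not given, so its reads cannot be told from those of the other strand.

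**Figure D2:**
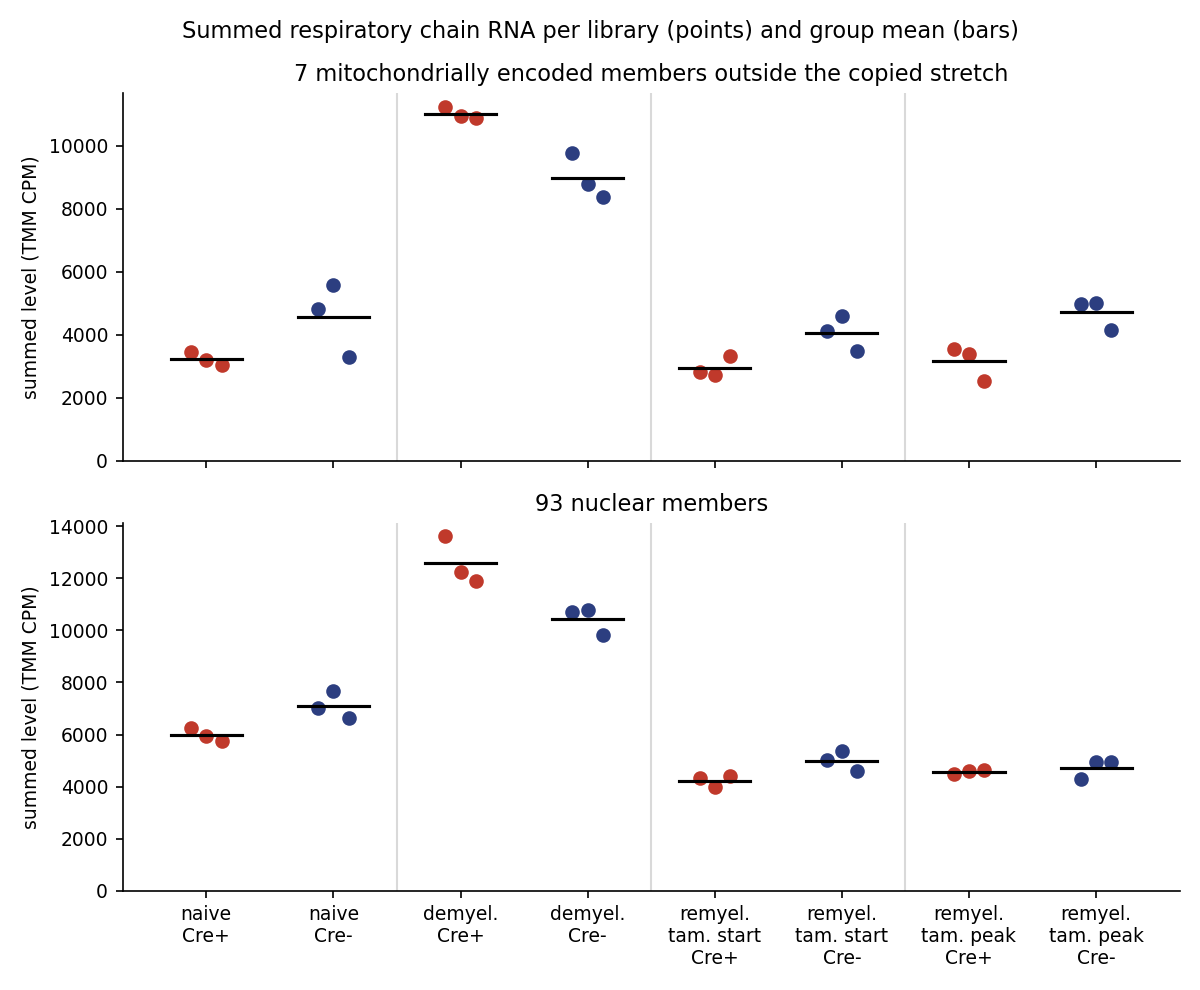
Summed level (CPM) of the 7 mitochondrially encoded members outside the copied stretch (top) and of the 93 nuclear members (bottom), with 1 point per library, a bar for the group mean and Cre+ left of Cre- in each state. The demyelination libraries stand above all others in both panels, with Cre+ above Cre-, while in the naive state the Cre+ means lie under the Cre- means.

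Nuclear members summed to 13625.8, 12249.4 and 11901.0 CPM in demyelination Cre+ and 10713.0, 10773.5 and 9832.9 CPM in demyelination Cre- libraries, against 6258.8, 5941.0 and 5738.0 CPM in naive Cre+ and 7015.8, 7656.3 and 6616.9 CPM in naive Cre- libraries. The demyelination mean was 2.11 times the naive mean in Cre+ and 1.47 times in Cre- mice. The sum of all 13 mitochondrial members per nuclear sum was higher in demyelination as well. It was 0.825 to 0.916 in Cre+ and 0.816 to 0.913 in Cre- demyelination libraries. In naive libraries it was 0.530 to 0.554 in Cre+ and 0.5 to 0.729 in Cre-. By complex, the members called higher in Cre+ and in Cre- were 36 and 31 of 37 nuclear members tested in complex I, 3 and 1 of 4 in complex II, 8 and 6 of 8 in complex III, 14 and 12 of 16 in complex IV and 16 and 14 of 17 in ATP synthase. Of the 8 assembly factors 5 and 1 were called higher.

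Within complex IV the change was uneven between paralogues. Cox6a2, the isoform of subunit 6A known from heart and skeletal muscle, had 49.63, 39.01 and 41.79 CPM in demyelination Cre+, against 1.076, 1.522 and 1.308 CPM in naive Cre+ libraries. In Cre- it had 38.09, 41.75 and 23.22 CPM in demyelination, against 3.513, 2.597 and 2.507 CPM in naive libraries. These are log2 changes of 5.03 ± 0.27 (adjusted p = 7.98e-14) and 3.60 ± 0.25 (adjusted p = 2.21e-11), which were the largest of all members in either genotype. The ubiquitous isoform Cox6a1 had 409.4, 333.3 and 328.6 CPM in demyelination Cre+, against 99.64, 90.9 and 84.38 CPM in naive Cre+ libraries (log2 1.96 ± 0.12, adjusted p = 7.71e-13). In Cre- it had 294.5, 300.7 and 258.5 CPM, against 127.4, 128.8 and 101.8 CPM (log2 1.25 ± 0.12, adjusted p = 6.07e-09). Per kb of exon Cox6a2 stood at 63.9 against 508.7 CPM per kb for Cox6a1 in demyelination Cre+ libraries, so it remained the minor isoform.

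The other restricted isoforms stayed near the detection limit. Cox7a1 had 0.659, 1.04 and 0.486 CPM in demyelination Cre+, against 0.140, 0.0967 and 0.192 CPM in naive Cre+ libraries (log2 2.34 ± 0.68, adjusted p = 0.00541), and was not called in Cre- (log2 1.27 ± 0.64, adjusted p = 0.124). Cox6b2 was called higher in Cre+ (log2 2.26 ± 0.45, adjusted p = 0.000128), at 1.20 to 1.67 CPM, and not in Cre- (log2 0.78 ± 0.41, adjusted p = 0.148). Cox4i2 and Cox8b, at 0 to 1.41 CPM in the 24 libraries, were not called in either genotype. Their ubiquitous counterparts were far higher and rose. Cox4i1 had 516.8, 444.9 and 451.7 CPM in demyelination and 121.7, 121.9 and 110.3 CPM in naive Cre+ libraries (log2 2.00 ± 0.13). Cox8a was called higher in Cre+ (log2 1.86 ± 0.14) and in Cre- (log2 1.28 ± 0.14). Cox7a2 (log2 1.51 ± 0.12 in Cre+), Cox7b (1.99 ± 0.15) and Cox7a2l, which encodes a factor that joins complexes III and IV (1.35 ± 0.11), were also called higher in both genotypes.

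**Figure D3:**
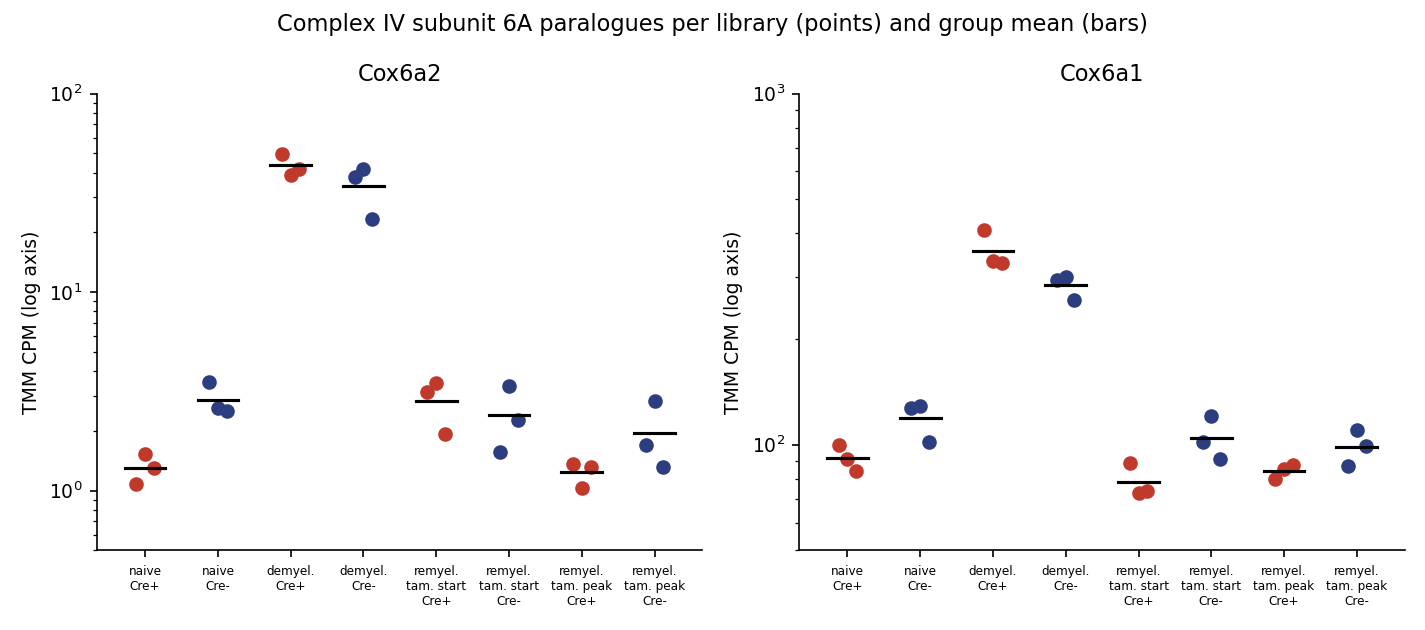
Level (CPM, log axis) of Cox6a2 (left) and Cox6a1 (right), with 1 point per library, a bar for the group mean and Cre+ left of Cre- in each state. Cox6a2 stands between 23.2 and 49.6 CPM in demyelination and at most at 3.51 CPM in all other libraries, and Cox6a1 changes by a smaller factor from a higher level.

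Members differed widely in the size of the change. Ndufa1 (ENSMUSG00000016427, chromosome X, 37187588 to 37191163), an accessory subunit needed to assemble complex I, had 277.7, 238.4 and 233.1 CPM in demyelination Cre+, against 35.94, 34.46 and 32.34 CPM in naive Cre+ libraries (log2 2.87 ± 0.15, adjusted p = 8.31e-14). In Cre- it had 169.5, 163.7 and 131.8 CPM, against 53.3, 65.06 and 48.93 CPM (log2 1.47 ± 0.15, adjusted p = 1.42e-08). Atp5mpl, a small subunit of ATP synthase, had 125.4, 121.5 and 106.4 CPM in demyelination Cre+, against 26.91, 26.41 and 23.92 CPM in naive Cre+ libraries (log2 2.19 ± 0.16). For both genes the states did not overlap.

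Sdha, the flavoprotein of succinate dehydrogenase (complex II), had 411.4, 336.1 and 369.8 CPM in demyelination Cre+, against 443.1, 409.1 and 443.4 CPM in naive Cre+ libraries (log2 -0.21 ± 0.10, adjusted p = 0.0643). In Cre- it had 331.4, 348.6 and 353.6 CPM, against 342.5, 347.0 and 407.3 CPM (log2 -0.09 ± 0.10, adjusted p = 0.537). Ndufs1, which holds iron-sulphur clusters of complex I, had 110.1, 104.5 and 105.2 CPM in demyelination Cre+ libraries. In naive Cre+ libraries it had 113.7, 108.8 and 110.7 CPM (log2 change -0.06 ± 0.09, edgeR adjusted p = 0.62). In Cre- libraries Ndufs1 was called lower in demyelination (log2 -0.23 ± 0.09, adjusted p = 0.0469). Neither subunit was called higher in demyelination. Ndufv1, the NADH-binding subunit, changed by 0.22 ± 0.08 in Cre+ (adjusted p = 0.0209) and by 0.01 ± 0.08 in Cre- (adjusted p = 0.95). The catalytic F1 subunits Atp5b (log2 0.67 ± 0.10 in Cre+, 0.44 ± 0.10 in Cre-) and Atp5a1 (0.46 ± 0.09 in Cre+, adjusted p = 0.000192, and 0.14 ± 0.09 in Cre-, adjusted p = 0.282) lay between.

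The Rieske protein gene Uqcrfs1 of complex III rose by 0.58 ± 0.10 in Cre+ and 0.32 ± 0.10 in Cre- libraries. With a correction for GC content and exon length its change was -0.03 and -0.01. Uqcrc1, a core protein of complex III, rose in Cre+ (log2 0.49 ± 0.12, adjusted p = 0.00123) and not in Cre- (-0.01 ± 0.12, adjusted p = 0.962). The 2 members beside Ndufs1 that were called lower in Cre- demyelination were Atp5s, which encodes a factor associated with ATP synthase (log2 -0.46 ± 0.12), and the assembly factor Ndufaf7 (-0.38 ± 0.10). Exons of nuclear members were shorter than those of other genes, with a median of 1631.0 bases against 3692.0 over all genes tested. With GC content and length corrected, 54 nuclear members stayed above the threshold as higher in Cre- and 72 in Cre+, against 65 and 82 without the correction. The corrected counts stand without the share of all genes called there.

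**Figure D4:**
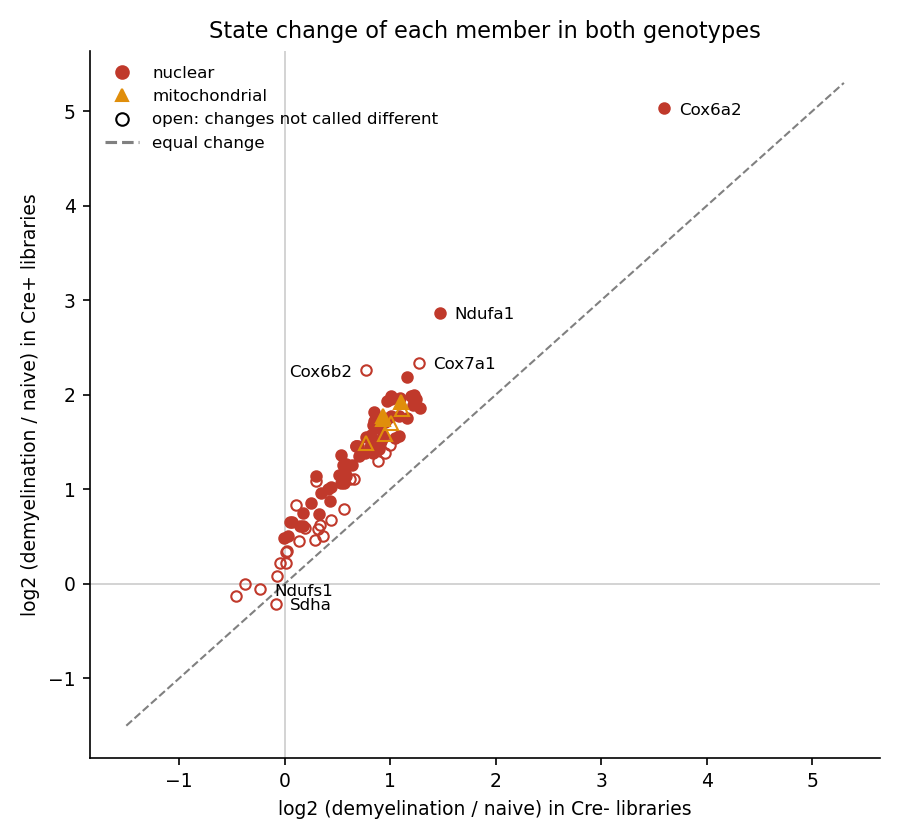
Log2 change from naive to demyelination of each tested member outside the copied stretch, in Cre+ libraries (vertical axis) against Cre- libraries (horizontal axis), with filled symbols where the changes in both genotypes were called different and a dashed line for equal change. Nearly all points lie above the dashed line, Cox6a2 and Ndufa1 lie farthest out, and Sdha and Ndufs1 lie near the origin.

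Markers of other cells also moved between naive and demyelination. All 4 border-associated macrophage markers were called higher in demyelination in both genotypes, with summed levels of 45.7 to 54.1 CPM in demyelination Cre+ and 68.6 to 118.7 CPM in demyelination Cre-, against 10.1 to 13 CPM in naive Cre+ and 16.7 to 20.9 CPM in naive Cre- libraries. Of 3 monocyte markers, 2 were called higher in Cre+ and 3 in Cre-. The 5 neutrophil markers summed to 677.1 to 869.7 CPM in demyelination Cre+ and 133.1 to 495.6 CPM in demyelination Cre-, against 62.3 to 225.2 CPM in naive Cre+ and 60.7 to 254.1 CPM in naive Cre- libraries, and 4 were called higher in Cre+ and 2 in Cre-. The 3 oligodendrocyte precursor markers summed to 65.3 to 109.8 CPM in demyelination Cre+ and 35.8 to 47.7 CPM in demyelination Cre-, against 1.09 to 2.54 CPM in naive Cre+ and 1.72 to 3.1 CPM in naive Cre- libraries, with 1 called higher in each genotype. The 5 endothelial markers summed to 108.8 to 111.1 CPM in demyelination Cre+ and 80.6 to 100.3 CPM in demyelination Cre-, against 26.3 to 37.1 CPM in naive Cre+ and 35.6 to 53.6 CPM in naive Cre- libraries, with 1 called higher and 1 lower in each genotype. Astrocyte marker sums were lower in demyelination, at 196.4 to 246.5 against 251.2 to 299.5 CPM in Cre+. In Cre- they were at 243.0 to 315.6 against 386.9 to 471.9 CPM. Neuron marker sums were 2.79 to 3.67 against 7.27 to 9.11 CPM in Cre+, and 3.88 to 4.73 against 4.72 to 6.41 CPM in Cre-. Erythroid marker sums were 41 to 83 against 17.9 to 26.7 CPM in Cre+, and 28.7 to 76.1 against 6.14 to 32.7 CPM in Cre-. None of these markers was at 0 in all libraries of a group. The microglial markers summed to 38756.9 to 41805.2 CPM in demyelination Cre+ and 43090.2 to 47287.4 CPM in demyelination Cre-, against 60524.0 to 61435.0 CPM in naive Cre+ and 69660.9 to 75251.6 CPM in naive Cre- libraries. The part of such cells in the respiratory chain values was not tested.

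After demyelination the levels were low again. In remyelination with tamoxifen at the start, 94 of 103 members were called lower than in demyelination in Cre+ mice, against 30.8% of all genes, and 93 in Cre- mice, against 28.3%. Another 5 were called higher in each genotype, against 32.5% of all genes in Cre+ and 26.3% in Cre-, and all 5 belong to the copied stretch (mt-Co2, mt-Atp8, mt-Atp6, mt-Co3, mt-Nd4l). The 86 nuclear members called lower were as many in each genotype. Nuclear members summed to 4327.6, 3968.1 and 4390.1 CPM in Cre+ and 5008.0, 5358.9 and 4583.0 CPM in Cre- remyelination libraries, below the naive range. The 7 mitochondrial members summed to 2830.0, 2706.4 and 3332.5 CPM in Cre+ and 4114.7, 4596.7 and 3476.2 CPM in Cre- libraries, which overlaps the naive range in both genotypes. Cox6a2 was at 3.131, 3.477 and 1.92 CPM in Cre+ and 1.57, 3.378 and 2.265 CPM in Cre- libraries, and its log2 change from demyelination was -3.92 ± 0.26 and -3.82 ± 0.27. mt-Co1 was lower by the test in both genotypes (log2 -1.5 ± 0.14 in Cre+ and -0.73 ± 0.14 in Cre-), but with the correction for GC content and length its change in Cre- was 0.17 (adjusted p = 0.108). Markers of other cells differed in this contrast too. Border-associated macrophage markers summed to 219.8 to 383.2 CPM in remyelination against 45.7 to 54.1 CPM in demyelination in Cre+, and to 276.6 to 329.3 against 68.6 to 118.7 CPM in Cre-, with 4 of 4 called higher in both genotypes. Mural cell markers summed to 65.5 to 88.3 CPM in remyelination against 9.96 to 15.6 CPM in demyelination in Cre+ (4 of 4 called higher), and to 31.3 to 48.5 against 8.5 to 20.6 CPM in Cre- (2 of 4). Astrocyte markers summed to 417.2 to 439.8 CPM in remyelination against 196.4 to 246.5 CPM in demyelination in Cre+, and to 343.4 to 593.0 against 243.0 to 315.6 CPM in Cre- (5 of 7 called higher in both). Their part in the result was not tested. Since the remyelination libraries also differ from the others in depth and in the counts of the copied stretch, the state and the library series cannot be told apart.

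The genotypes differed in the naive state. Of the 103 members, 50 were called lower in Cre+, which is 48.5% of them against 13.7% of all genes, and 0 higher, against 14.7%. The median log2 difference was -0.48 for mitochondrial and -0.36 for nuclear members, with -0.01 for all genes. By complex, 17 of 37 nuclear members of complex I, 4 of 8 assembly factors, 3 of 4 members of complex II, 6 of 8 of complex III, 8 of 16 of complex IV and 9 of 17 of ATP synthase were called lower. Among the members called lower, Cox6b2, near the detection limit, had the largest fall (log2 -1.38 ± 0.46, adjusted p = 0.0244), followed by Cox6a2, described below, and Ndufa1 (log2 -0.71 ± 0.15, adjusted p = 0.000771). Next came Atp5g1, which encodes the ATP synthase c ring (-0.70 ± 0.13, adjusted p = 0.000257), and Cox7b (-0.68 ± 0.14, adjusted p = 0.000806). Cox6a2 had 1.076, 1.522 and 1.308 CPM in Cre+ against 3.513, 2.597 and 2.507 CPM in Cre- libraries (log2 -1.09 ± 0.27, adjusted p = 0.00403), with no overlap.

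Among the mitochondrial members mt-Cytb fell by 0.64 ± 0.13 on the log2 scale (adjusted p = 0.000384), mt-Nd1 by 0.55 ± 0.17 (adjusted p = 0.0216) and mt-Co1 by 0.47 ± 0.14 (adjusted p = 0.0118). mt-Nd1 had 753.3, 718.8 and 697.0 CPM in Cre+ against 1129.5, 1298.6 and 736.5 CPM in Cre- libraries. Naive Cre- replicate 3 thus lay within the Cre+ range for mt-Nd1, as it did for the mitochondrial sum. mt-Nd5 (log2 -0.06 ± 0.22, adjusted p = 0.869) and mt-Nd6 (-0.18 ± 0.24, adjusted p = 0.627) were not called. Sdha stood apart from the other members of complex II, at 443.1, 409.1 and 443.4 CPM in Cre+ against 342.5, 347.0 and 407.3 CPM in Cre- libraries (log2 0.24 ± 0.10, adjusted p = 0.0621). Sdhb, which holds the iron-sulphur clusters of complex II, was called lower (log2 -0.37 ± 0.09, adjusted p = 0.00214).

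The naive count depended on single libraries. Without naive Cre- replicate 2 it was 28, without Cre+ replicate 3 it was 33, and without Cre- replicate 3 it was 66. Of these 66, 57 nuclear and 8 mitochondrial members were lower in Cre+ and 1 nuclear member was higher. With GC content and exon length corrected, 32 members were called lower, and the medians were -0.18 for nuclear and -0.18 for mitochondrial members. Counts under all these settings stand without the share of all genes called there. The astrocyte markers moved with the same contrast: 3 of 7 were called lower in Cre+, with a summed level of 251.2 to 299.5 CPM in Cre+ against 386.9 to 471.9 CPM in Cre- libraries, and 3 of 10 microglial markers were called lower. Border-associated macrophage markers summed to 10.1 to 13 CPM in Cre+ against 16.7 to 20.9 CPM in Cre- libraries. Monocyte markers summed to 7.16 to 11.1 CPM in Cre+ against 12.8 to 14.6 CPM in Cre-. Neuron markers went the other way, at 7.27 to 9.11 CPM in Cre+ against 4.72 to 6.41 CPM in Cre-. The part of any of these in the result was not tested.

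In demyelination the direction was the other way. Of the 103 members 16 were called higher in Cre+, against 5.69% of all genes, and 0 lower, against 3.48%. All 16 were nuclear: 13 of 37 in complex I, 2 of 16 in complex IV (Cox5a and Cox7a2) and 1 of 17 in ATP synthase (Atp5j). The median log2 difference was 0.26 for mitochondrial and 0.28 for nuclear members, with -0.01 for all genes. Ndufa1 was higher by 0.69 ± 0.14 (adjusted p = 0.00362). Cox5a, a subunit on the matrix side of complex IV, had 103.4, 82.16 and 89.73 CPM in Cre+ against 65, 64.56 and 54.15 CPM in Cre- libraries (log2 0.58 ± 0.15, adjusted p = 0.0138). Ndufa4 had 219.7, 171.2 and 169.2 CPM in Cre+ against 135.1, 132.9 and 115.0 CPM in Cre- libraries (log2 0.55 ± 0.13, adjusted p = 0.00745). Ndufc1, an accessory subunit of complex I, had 60.17, 55.28 and 50.43 CPM in Cre+ against 42.59, 42.19 and 36.13 CPM in Cre- libraries (log2 0.46 ± 0.13, adjusted p = 0.0251). Cre+ and Cre- libraries did not overlap for these 4 genes.

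No mitochondrial member was called in demyelination. mt-Nd5 had the largest difference, with 1122.3, 948.0 and 1121.8 CPM in Cre+ against 761.6, 702.7 and 673.2 CPM in Cre- libraries (log2 0.58 ± 0.22, adjusted p = 0.109). The mitochondrial sum was 1.23 times and the nuclear sum 1.21 times the Cre- mean, and for both sums the Cre+ libraries lay above all Cre- libraries. Cox6a2 did not pass the test (log2 0.34 ± 0.21, adjusted p = 0.361).

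This count rested on few libraries. Without the 3 libraries of very low Cx3cr1, which leaves a lone demyelination Cre+ library whose spread is taken from the other groups, 0 members were called, while the nuclear median was 0.29 and Ndufa1 stood at 0.66 (adjusted p = 0.283). Without Cre+ replicate 1 or without Cre- replicate 3, 1 member was called, and without Cre- replicate 2 it was 7. Counts rose under other settings, up to 44 with DESeq2, and stand without the share of all genes called there. Border-associated macrophage markers (2 of 4 called lower) and monocyte markers (2 of 3 called lower) stood lower in Cre+ in this contrast. Monocyte markers summed to 20.4 to 35.5 CPM in Cre+ against 41 to 87.4 CPM in Cre- libraries. Sums were higher in Cre+ for neutrophil markers (0 of 5 called), for oligodendrocyte precursor markers, at 65.3 to 109.8 CPM in Cre+ against 35.8 to 47.7 CPM in Cre- libraries (1 of 3 called higher), and for endothelial markers, at 108.8 to 111.1 against 80.6 to 100.3 CPM (0 of 5 called). The part of these cells in the result was not tested.

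**Figure D5:**
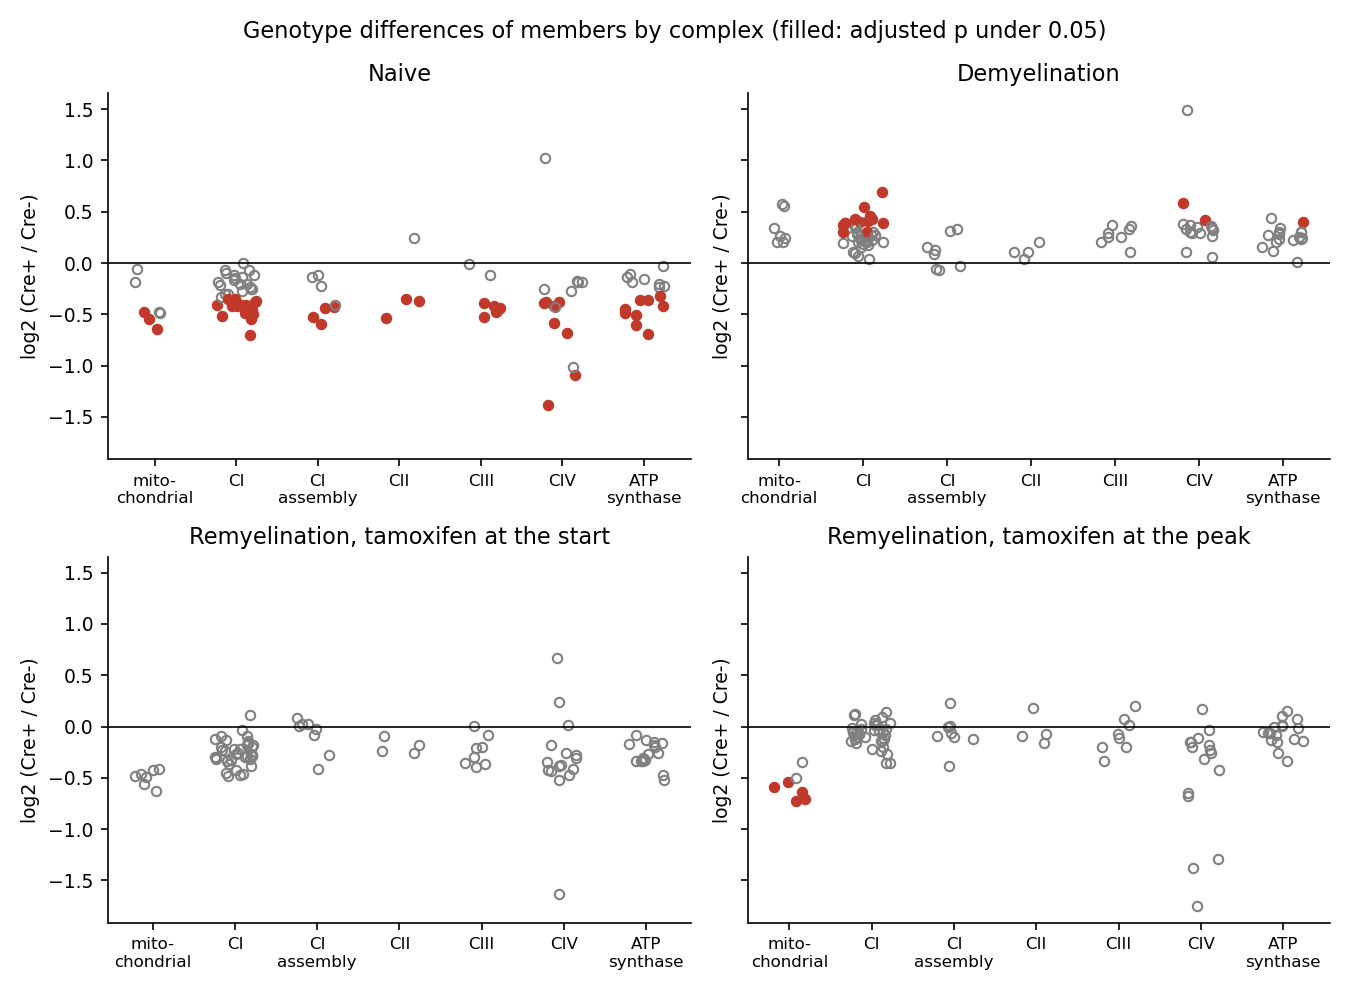
Log2 difference between Cre+ and Cre- libraries of each tested member outside the copied stretch, in 4 panels by state, with mitochondrially encoded members first and nuclear members by complex (CI to CIV), filled where the adjusted p was under 0.05. Filled points lie under 0 in the naive panel and above 0 in the demyelination panel, there are none with tamoxifen at the start, and with tamoxifen at the peak they are mitochondrial.

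The difference between these genotype effects was tested as an interaction. It was called for 66 of the 103 members, all with a higher Cre+ to Cre- ratio in demyelination than in the naive state, against 7.97% of all genes in that direction and 7.78% in the other. These were mt-Nd1, mt-Co1 and mt-Cytb and 63 nuclear members, of which 30 of 37 were in complex I, 2 of 8 assembly factors, 3 of 4 in complex II, 6 of 8 in complex III, 12 of 16 in complex IV and 10 of 17 in ATP synthase. The median was 0.74 for mitochondrial and 0.60 for nuclear members, and 0.00 for all genes. The interaction also says that the rise from naive to demyelination was larger in Cre+ than in Cre- mice. Ndufa1 had an interaction of 1.39 ± 0.20 (adjusted p = 0.000134), Cox6a2 of 1.43 ± 0.35 (adjusted p = 0.00661), Atp5mpl of 1.04 ± 0.21 (adjusted p = 0.00229) and mt-Cytb of 0.85 ± 0.18 (adjusted p = 0.00226). Further core subunits that passed were mt-Co1 (0.82 ± 0.20, adjusted p = 0.0061), Cox4i1 (0.77), Cox5a (0.76), Sdhb (0.58) and Uqcrc1 (0.50). Others did not: Sdha had -0.13 ± 0.14 (adjusted p = 0.594), Ndufs1 0.18 ± 0.13 (adjusted p = 0.407), Ndufv1 0.22 ± 0.11 (adjusted p = 0.217) and Atp5b 0.24 ± 0.14 (adjusted p = 0.257). With GC content and length corrected, 45 members were called and the medians were 0.43 for mitochondrial and 0.42 for nuclear members. Counts under this and the next setting stand without the share of all genes called there. Without the 3 libraries of very low Cx3cr1, 42 members were called, and Cox6a2 no longer passed the threshold. Of 4 border-associated macrophage markers 3 had a negative interaction, and their part in the result was not tested.

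With tamoxifen at the start, no member was called between genotypes in remyelination, where 0.0341% of all genes were called in either direction. At an unadjusted p under 0.05, 58 of 103 were lower in Cre+ and 0 higher, against 6.52% of all genes lower. DESeq2 called 4, a count without the share of all genes beside it. The medians were -0.49 for mitochondrial and -0.27 for nuclear members. mt-Cytb had 833.5, 796.2 and 960.5 CPM in Cre+ against 1177.3, 1283.9 and 1009.5 CPM in Cre- libraries (log2 -0.42 ± 0.13, adjusted p = 0.247). The groups did not overlap for this gene, and the difference did not pass the threshold.

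With tamoxifen at the peak the lower calls were mitochondrial. Of 103 members 7 were called lower in Cre+, all mitochondrial, against 4.02% of all genes, and 0 of 90 nuclear members were called. mt-Nd2 fell by 0.72 ± 0.22 (adjusted p = 0.0404), mt-Nd4 by 0.71 ± 0.20 (adjusted p = 0.0296), mt-Nd1 by 0.64 ± 0.17 (adjusted p = 0.0204), mt-Cytb by 0.59 ± 0.13 (adjusted p = 0.00265) and mt-Co1 by 0.54 ± 0.14 (adjusted p = 0.0122) on the log2 scale, and mt-Atp6 and mt-Co3 of the copied stretch by 0.63 and 0.60. mt-Nd1 had 644.7, 614.6 and 437.4 CPM in Cre+ against 893.1, 994.4 and 756.1 CPM in Cre- libraries. mt-Co1 had 1191.7, 1135.6 and 872.1 CPM in Cre+ against 1673.5, 1560.9 and 1423.2 CPM in Cre- libraries. Neither gene's groups overlapped.

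The sum of all 13 mitochondrial members was also set against the nuclear sum. At the peak this ratio was 0.818, 0.769 and 0.567 in Cre+ against 1.21, 1.06 and 0.871 in Cre- libraries. The nuclear median was -0.09, and nuclear sums were 4487.8, 4579.8 and 4642.2 CPM in Cre+ against 4278.1, 4925.4 and 4944.5 CPM in Cre- libraries, which overlap. Astrocyte markers summed to 279.0 to 353.1 CPM in Cre+ against 473.1 to 641.3 CPM in Cre- libraries at the peak, and neutrophil markers to 221.5 to 2470.2 against 91 to 137.4 CPM. Endothelial markers summed to 25.7 to 43.1 CPM in Cre+ against 49.4 to 76.3 CPM in Cre- libraries (1 of 5 called lower), oligodendrocyte precursor markers to 3.74 to 7.05 against 7.41 to 11.9 CPM (0 of 3 called), and mural cell markers to 5.57 to 25.7 against 18.4 to 46.3 CPM (2 of 4 called lower). Of the 7 astrocyte markers 2 were called lower. Their part in the result was not tested. The peak count fell to 1 without Cre- replicate 1 and to 1 without Cre+ replicate 3, and to 2 without Cre- replicate 2. These 3 counts stand without the share of all genes called there. Whether the genotype effect differed between tamoxifen timings was tested for each member, and 0 of 103 were called, against 3.77% of all genes in either direction. Leaving out 1 library gave at most 1 call in this interaction.

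The lists of other genes that follow were read in the same fits, and their counts stand against these shares of all genes: 26.3% higher and 25.9% lower in demyelination in Cre+, 19.7% and 16.2% in Cre-, 14.7% and 13.7% in the naive genotype contrast, 5.69% and 3.48% in the demyelination genotype contrast, and 7.97% and 7.78% in the interaction. Nuclear-encoded mitochondrial ribosomal proteins, which translate the 13 mitochondrial genes, had 78 tested members, of which 57 were called higher and 1 lower in demyelination in Cre+ and 31 higher in Cre-. In the naive genotype contrast 0 were higher and 26 lower, in demyelination 5 were higher, near the share of all genes, and 29 had a positive interaction. Of the cytosolic ribosomal proteins, 74 of 74 were higher in demyelination in Cre+ and 73 in Cre-. In naive Cre+ 50 were lower, and 46 had a positive interaction. In the demyelination genotype contrast 3 were higher in Cre+, which is under the share of all genes. Rps19 changed by 2.64 ± 0.13 between states in Cre+ and by 1.81 ± 0.13 in Cre- libraries. Their medians between states were 2.13 in Cre+ and 1.37 in Cre-, above those of the nuclear chain members.

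Of 31 genes of mitochondrial transcription, replication and RNA handling, 4 were called higher and 11 lower in demyelination in Cre+ (12.9% and 35.5%), and 3 and 5 in Cre- (9.68% and 16.1%, the second near the share of all genes). In the naive genotype contrast 2 were higher and 4 lower, in demyelination 3 and 2, and the interaction was called for 3 up and 2 down. Tfam, the packaging and transcription factor of mitochondrial DNA, changed by 0.02 ± 0.13 in Cre+ (adjusted p = 0.911) and by -0.09 ± 0.13 in Cre- (adjusted p = 0.668). Slirp, which stabilises mitochondrial mRNA, rose by 1.54 in Cre+ and 0.71 in Cre-. Grsf1, an RNA-binding protein of mitochondrial RNA granules, was higher in naive Cre+ (log2 1.78, adjusted p = 0.00385).

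The 19 nuclear regulators of mitochondrial biogenesis had 3 higher and 9 lower in demyelination in Cre+ (15.8% and 47.4%), and 1 and 5 in Cre- (5.26% and 26.3%). In the naive genotype contrast 2 were higher and 2 lower, in demyelination 0, and the interaction was called for 1 (Myc, 1.17). Nrf1 (nuclear respiratory factor 1, an activator of many chain subunits) was called lower in demyelination, by -0.74 ± 0.09 in Cre+ and -0.46 ± 0.09 in Cre-, and so was Gabpa, the DNA-binding part of nuclear respiratory factor 2, by -0.58 ± 0.10 and -0.52 ± 0.10. Ppargc1a, which encodes a coactivator of biogenesis, was not called (0.71 ± 0.49 in Cre+, adjusted p = 0.23). Its relative Ppargc1b rose in both genotypes (1.60 ± 0.30 in Cre+ and 1.37 ± 0.28 in Cre-).

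Promoters of the members were searched for the sites of these factors, in the 250 bases before the RefSeq start of 74 nuclear members with an entry (GRCm38.p6). The NRF1-type letters GCGCATGC, on either strand, were in 9 of 74 (12.2%), against 2.32% of 27025 genes. The ETS letters CCGGAAG, the core that Gabpa binds, were in 13 of 74 (17.6%), against 7.05%. The YY1 letters AAGATGG were in 0 of 74, against 4.53%, and the estrogen-related receptor letters TCAAGGTCA in 1 of 74 (1.35%), against 0.366%. The promoters with both of the first 2 motifs were those of Atp5l, a subunit of the ATP synthase stalk region (chr9:44920743-44920992, minus strand), and of Cox6a1 (chr5:115348959-115349208, minus strand). They are shown 5′ to 3′ on the strand of the gene with these motifs in capitals; in Cox6a1 the capitals of the NRF1 type are 2 matches on opposite strands that overlap in a single run.
Atp5l: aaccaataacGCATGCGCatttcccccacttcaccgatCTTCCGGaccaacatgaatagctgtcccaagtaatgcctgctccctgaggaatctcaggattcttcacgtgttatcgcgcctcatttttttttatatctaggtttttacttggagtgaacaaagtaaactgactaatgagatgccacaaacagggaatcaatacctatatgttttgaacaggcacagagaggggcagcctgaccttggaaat
Cox6a1: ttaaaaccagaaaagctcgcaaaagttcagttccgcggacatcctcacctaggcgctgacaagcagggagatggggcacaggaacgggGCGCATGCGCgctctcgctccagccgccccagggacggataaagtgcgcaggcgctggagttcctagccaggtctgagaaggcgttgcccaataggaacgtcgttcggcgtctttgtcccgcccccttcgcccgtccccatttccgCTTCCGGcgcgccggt
Atp5l had 69.89, 68.44 and 61.17 CPM in demyelination Cre+ and 25.6, 25.66 and 22.73 CPM in naive Cre+ libraries, and Cox6a1 is given above, so both belong to the members that rose. A match of letters does not show that a factor binds there.

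Of 21 glycolysis genes 15 were called higher and 1 lower in demyelination in Cre+, and 13 and 2 in Cre-. In the naive genotype contrast 1 was higher and 11 lower, in demyelination 10 were higher and 2 lower, and the interaction was called for 7, all positive. Ldha, which converts pyruvate to lactate, rose by 2.15 ± 0.09 between states in Cre+ and 1.10 ± 0.09 in Cre-, and was higher in demyelination Cre+ than Cre- by 0.56 ± 0.09 (adjusted p = 0.000454). Eno1 (enolase) fell by 0.73 ± 0.11 in naive Cre+ (adjusted p = 1.44e-05). The 25 genes of the tricarboxylic acid cycle and pyruvate dehydrogenase had 9 higher and 4 lower in demyelination in Cre+ (36% and 16%), 5 and 4 in Cre- (20% and 16%, both near the shares of all genes), 3 and 3 in the naive genotype contrast, 3 and 1 in demyelination and 6 and 1 in the interaction. Idh2, a mitochondrial isocitrate dehydrogenase, fell by 1.33 ± 0.11 in Cre+ and 0.73 ± 0.10 in Cre- demyelination, while Mpc1, of the mitochondrial pyruvate carrier, rose by 1.22 ± 0.12 in Cre+.

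Of 24 carriers, uncoupling and electron supply genes, 15 were higher and 2 lower in demyelination in Cre+ and 9 and 2 in Cre-, 2 and 8 in the naive genotype contrast, 1 and 0 in demyelination and 9 and 1 in the interaction. Coq7, an enzyme of ubiquinone synthesis, rose by 2.23 ± 0.13 in Cre+ and 1.31 ± 0.13 in Cre-, and Ucp2, an uncoupling protein of the inner membrane, by 1.79 ± 0.13 and 1.27 ± 0.13. Of 36 assembly factors outside the naming rule, 14 were higher and 5 lower in Cre+, 10 and 5 in Cre-, 1 and 7 in naive genotype, 2 and 0 in demyelination genotype and 5 and 0 in the interaction. Uqcc2, an assembly factor of complex III, had an interaction of 0.97 ± 0.17 (adjusted p = 0.000618).

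Of 10 antioxidant genes, 7 were higher in Cre+ and 6 in Cre- demyelination, 1 was higher and 2 lower in naive Cre+, 2 were higher in demyelination Cre+ and 4 had a positive interaction. Prdx5, a peroxiredoxin, rose by 1.63 ± 0.13 in Cre+. Of 12 mitochondrial chaperone and protease genes, 6 were higher and 4 lower in Cre+ and 5 and 1 in Cre- demyelination, 1 (Hspe1) was higher in Cre+ in each of the naive and demyelination contrasts, and 0 had an interaction. Of 21 fission, fusion and mitophagy genes, 8 were higher and 8 lower in Cre+ and 4 and 5 in Cre- demyelination, 2 were higher and 6 lower in naive Cre+, 1 was higher in demyelination Cre+ and the interaction was called for 6 up and 1 down. There were 22 mitochondrial transfer RNA genes, of which 11 passed the filter. Of these, 9 were higher in demyelination in Cre+ and 5 in Cre-, 0 differed in naive genotype, 3 were higher in demyelination Cre+ and 2 had a positive interaction. mt-Tn was higher by 1.62 ± 0.32 in demyelination Cre+ (adjusted p = 0.00281).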

How the data were processed

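RNA of sorted brain microglia had been sequenced in 24 libraries. The authors deposited whole-number read counts for each Ensembl ID, made with Trimmomatic 0.36, STAR 2.5.2b and featureCounts of Subread 1.5.2 on GRCm38, per the submitters' processing notes. Neither the strand setting nor the handling of reads with several matches is stated in the labels or notes. Gene symbols, biotypes, exon lengths and coordinates came from GENCODE M21 (49056 of 49315 IDs matched), promoters from RefSeq (GRCm38.p6), and nuclear copies of mitochondrial genes from blastn 2.17.0 on the reference.

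The members and all gene lists were chosen with earlier results of these data known. Genes with low counts were removed with filterByExpr over the 8 groups, library sizes were scaled by TMM, and 10 contrasts (genotype within a state, state within a genotype, and interactions) were tested in 1 model over the 24 libraries with the robust quasi-likelihood F test of edgeR 4.0.16 (R 4.3.3), with 16 residual degrees of freedom and Benjamini-Hochberg adjustment over 17579 genes. Errors of log2 fold changes are SE derived from the fold change and the F statistic of that model, with n = 3 per group. The labels call replicates biological without numbering animals. Scripts were tested on simulated counts. Named genes were the mitochondrial members, core subunits, paralogue pairs, in each contrast up to 4 called nuclear members per direction, by size of change (mean log2 CPM 2 or more), and up to 4 called genes of each further list with the smallest p; Rps19, Tfam, Ppargc1a, Atp5l and Dicer1 follow from a list, a motif match or a genotype check. Further lists are those whose counts the report gives.

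Alternatives were DESeq2 1.42.0, RLE size factors, library sizes without mitochondrial genes, no filter, correction for GC content and exon length, only the groups compared, the replicate number as a block, leaving out each library, and leaving out the 3 libraries of very low Cx3cr1. In no state did all same-numbered pairs correlate above 0.1 in their deviations from the group means, so the replicate numbers were not taken as pairs. Precision at low counts is limited by depth. The p-values rest on the spread between libraries within groups, pooled over all 8 groups and moderated across genes. They do not measure the spread of the compared groups alone.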

Additional observations from a re-analysis of the deposited data

Results flagged for a closer look

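The Cre+ to Cre- ratio differed between demyelination and the naive state for 66 members, by edgeR's test of that difference. Among the named members, the log2 ratio was higher in demyelination by 1.43 for Cox6a2, 1.39 for Ndufa1, 1.04 for Atp5mpl, 0.98 for Cox7b, 0.85 for mt-Cytb, 0.82 for mt-Co1 and Ndufa4 (0.818 and 0.824) and 0.81 for mt-Nd1. It was higher by 0.77 for Cox4i1, 0.76 for Cox5a, 0.71 for Cox6a1, 0.70 for Cox6b1, 0.65 for Cox7a2l, 0.60 for Cox7a2, 0.58 for Cox8a and Sdhb (0.579 and 0.578) and 0.50 for Uqcrc1. For these genes the naive difference was negative and the demyelination difference positive. Whether single libraries carry the pattern is described under the processing.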

How the results depend on the processing

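The counts here are given without the share of all genes called in each setting. They cannot show whether the members moved more than other genes did. The naive count of 50 was 32 with GC content and length corrected, and 28 to 66 with 1 library left out. The demyelination count of 16 was 44 with DESeq2, 29 with RLE size factors, 37 with no filter, 32 with the GC and length correction, 38 with only the groups compared, 0 without the 3 libraries of very low Cx3cr1, and 1 to 18 with 1 library left out. With tamoxifen at the start, where 0 were called, DESeq2 called 4, no filter gave 3 and only the groups compared 1. The peak count of 7 was 1 to 9, and the peak against start interaction of 0 was 0 to 1, with 1 library left out. The interaction of demyelination with genotype, at 66, was 45 with GC content and length corrected, 42 without the 3 libraries of very low Cx3cr1 and 46 to 78 with 1 library left out. Without scaling, the sum of all 13 mitochondrial members was 2973.4 CPM in naive Cre+ and 4226.0 in naive Cre-. It was 8996.0 in demyelination Cre+ and 7574.9 in demyelination Cre-. In remyelination with tamoxifen at the start it was 3661.4 in Cre+ and 4759.5 in Cre-. With tamoxifen at the peak it was 3625.7 in Cre+ and 5589.2 in Cre-. The nuclear sum was 5491.4 in naive Cre+ and 6550.9 in naive Cre-, 10263.0 in demyelination Cre+ and 8809.2 in demyelination Cre-, 5067.9 in remyelination Cre+ and 5622.5 in remyelination Cre- at the start, and 5045.6 and 5358.6 at the peak. With GC content and length corrected, the change of Uqcrfs1 between naive and demyelination turned to -0.0269 in Cre+ and -0.0118 in Cre-, and that of mt-Co1 between demyelination and remyelination in Cre- to 0.17, and the cause was not tested. With the replicate block, the counts were 52 in naive, 22 in demyelination, 9 at the peak and 62 for the interaction. Same-numbered libraries correlated at 0.0755 to 0.294 at the peak and 0.0394 to 0.0918 in the naive state, and in both of these each library correlated best with its own number, a hint from the data and not the design. They correlated at -0.0351 to 0.0347 in the other states. Of 2413 gene values under alternatives 2273 kept direction and side of the threshold, 137 lost the threshold and 3 reversed.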
